A study of Homo sapiens with 2 samples.

Results

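The facilitative glucose transporters are membrane proteins, called GLUTs and encoded by the SLC2A genes, that let glucose and related sugars cross a membrane down their concentration gradient. Of the 57158 genes in the deposited table, 10 were chosen by symbol for description, namely SLC2A1, SLC2A2, SLC2A3, SLC2A4, SLC2A6, SLC2A8, SLC2A9, SLC2A10, SLC2A12 and SLC2A14. The rule used their symbols and not their levels, and each matched 1 row. The symbols themselves were chosen with earlier results of these data known. The samples were 2 strand-specific sequencing libraries of mRNA from liver progenitors made from CyT49, a human embryonic stem cell line. The cells had reached definitive endoderm at day 2, were then grown in suspension for 6 days in 50 ng/ml BMP4, 10 ng/ml FGF2 and 0.2% FBS, and were collected as day 8 cells. No untreated, earlier or adult liver sample was analysed here, so levels are described within 1 group and no change could be tested.

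Values are RPKM, read numbers that the authors divided by gene length (kilobases) and by library size. No value lay between 0.1 and 0.5, and 0.1 is read as under 0.5 RPKM, called the floor. From the step between values of genes with 1 exon, depth came to 25182071 reads (library 1) and 25263820 reads (library 2). The variance between libraries was 1.06 times that of counting alone in 1051 such genes averaging at least 50 reads. They were therefore counted as 1 sample, and the labels do not say whether they came from separate cultures. Hepatoblast markers, 9 in number, all lay between 44.7 RPKM for HNF4A and 2188 RPKM for APOA1. A level of 1 RPKM was met by 59.8% of the protein-coding background. Of 8 mature hepatocyte markers 6 were at the floor, while ALB stood at 6.68 RPKM and CPS1 at 4.06. The markers were picked when earlier results of these data were known, so their levels are no independent check of the labelled cell type.

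In adult liver the transporter of hepatocytes is GLUT2, the product of SLC2A2, which has a low affinity and a high capacity and carries glucose both into the cell after a meal and out of it during fasting. GLUT1 (SLC2A1) supplies basal glucose to most growing and fetal cells and to red blood cells. GLUT3 (SLC2A3) has a high affinity for glucose and is best known from neurons, placenta and the early embryo. GLUT14 (SLC2A14) is a near copy of GLUT3 on the same chromosome, described mainly in testis, so reads of one gene can match the other.

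How alike the 2 genes are is seen in their coding sequence, read from GRCh37, the build also called hg19. Of 1491 aligned coding bases of SLC2A3 and SLC2A14, 1443 were identical (96.8%) and 48 differed. By the same alignment, SLC2A1 matched SLC2A3 at 67.2% of its aligned coding bases, SLC2A4 at 64.1% and SLC2A2 at 59.3%, and the 5 other members lay between 50.9% and 52.5%. The stretch of 90 coding bases within 1 exon in which the pair differed most held 8 differences. It is shown with the matching stretch of SLC2A1 and SLC2A2, at chr12:8083138-8083227 for SLC2A3, chr12:7981362-7981451 for SLC2A14, chr1:43395606-43395695 for SLC2A1 and chr3:170723794-170723883 for SLC2A2, all on the minus strand of GRCh37. Capitals mark, in SLC2A3 and SLC2A14, the bases at which these genes differ from each other and, in SLC2A1 and SLC2A2, the bases that differ from SLC2A3.
SLC2A3: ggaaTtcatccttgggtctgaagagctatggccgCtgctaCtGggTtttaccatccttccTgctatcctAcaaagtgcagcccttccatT
SLC2A14: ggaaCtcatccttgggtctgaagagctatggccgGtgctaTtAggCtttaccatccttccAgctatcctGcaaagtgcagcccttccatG
SLC2A1: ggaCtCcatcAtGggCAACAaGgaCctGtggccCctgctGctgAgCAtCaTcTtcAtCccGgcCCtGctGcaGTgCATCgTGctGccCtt
SLC2A2: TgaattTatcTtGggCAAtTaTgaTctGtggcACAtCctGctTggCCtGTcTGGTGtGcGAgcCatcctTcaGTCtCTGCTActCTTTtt

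In this stretch SLC2A1 differed from SLC2A3 at 37 of 90 bases and SLC2A2 at 44. Elsewhere the pair was identical over longer runs. The longest identical coding run had 137 bases, and 8 runs had 50 bases or more. A stretch without any difference is shown because a read that lies within it cannot be assigned to 1 of the genes. It is at chr12:8082378-8082467 in SLC2A3 and chr12:7980189-7980278 in SLC2A14, on the same strand and build, and holds no capitals because no base differs.
SLC2A3: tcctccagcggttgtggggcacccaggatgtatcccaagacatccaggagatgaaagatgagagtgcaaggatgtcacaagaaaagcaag
SLC2A14: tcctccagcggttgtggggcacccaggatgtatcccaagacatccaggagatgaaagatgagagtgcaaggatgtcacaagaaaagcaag

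SLC2A3 was by far the most abundant glucose transporter transcript of these progenitors, and SLC2A2, the transporter gene of adult hepatocytes, was at the floor. Of the 10 members, 7 reached 1 RPKM in both libraries, beside 59.8% of all 19344 protein-coding genes and 56.6% of the 371 protein-coding SLC genes, the wider set of solute carriers. At 10 RPKM or more stood 3 members, beside 20.2% of all protein-coding genes. The median of the members was 3.31 RPKM, that of all protein-coding genes 2.42 and that of SLC genes 1.71. It was 1.36 RPKM with SLC2A3 and SLC2A14 summed as 1 gene and 1.30 over all 14 SLC2A genes, below both backgrounds. With 10 genes, a count of 7 detected lies near these backgrounds and is no result about the members.

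**Figure D1:**
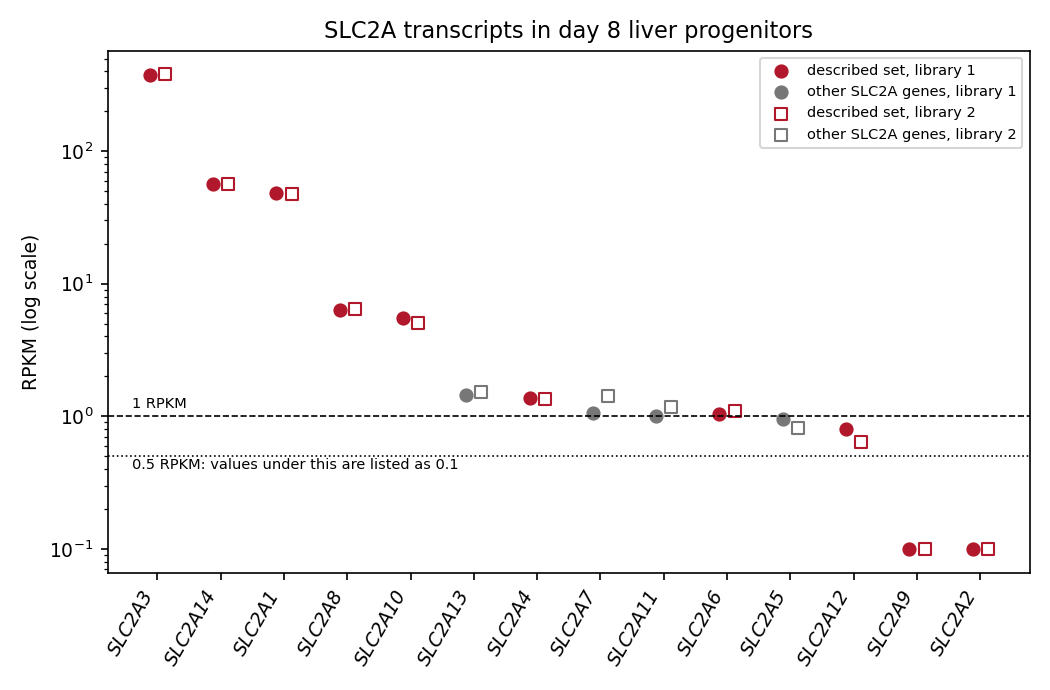
RPKM on a log scale of the 14 protein-coding SLC2A genes in order of mean level, with filled circles for library 1 and open squares for library 2; the 10 described genes are red and the other 4 grey. SLC2A3 stands near 377 RPKM in both libraries, SLC2A14 and SLC2A1 between 47.7 and 56.4, and SLC2A9 and SLC2A2 at the floor, which is drawn at 0.1.

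Among the class I transporters, which share the closest sequences, SLC2A3 had 375 RPKM in library 1 and 379 in library 2. This was rank 64 of 19344 protein-coding genes and rank 2 of 371 SLC genes. Directly above it in the order of SLC genes stood SLC25A6 at 386 RPKM, and directly below it SLC25A5 at 180, both ADP/ATP carriers of the mitochondrial membrane. The gene, ENSG00000059804.11, lies on chromosome 12 from 8071826 to 8171603 on the minus strand. In bulk RNA a low level in many cells and a high level in few cells cannot be told apart.

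SLC2A1 had 48.1 RPKM in library 1 and 47.7 in library 2. It held rank 644 among protein-coding genes and rank 10 among SLC genes, between SLC22A17 at 49.3 RPKM and SLC39A14, a metal ion carrier, at 42.1. The level of SLC2A3 was 7.88 times that of SLC2A1, 7.80 times in library 1 and 7.95 times in library 2. SLC2A1, ENSG00000117394.15, lies on chromosome 1 from 43391024 to 43424564, and none of its 50-base windows occurred in the sense strand of another annotated gene. Of its exon bases, 497 overlap a non-coding RNA gene on the opposite strand that had no value.

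SLC2A2 was listed at the floor in both libraries. On its annotated exon length of 3411 bases the floor stands for 42.9 reads in library 1, so a low level of transcription could not be seen. With 0.5 RPKM as its upper limit, SLC2A3 was over 754 times and SLC2A1 over 95.78 times as high per length. SLC2A2, ENSG00000163581.9, lies on chromosome 3 from 170714136 to 170744532. None of its 50-base windows occurred in another annotated gene.

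SLC2A4 encodes GLUT4, which insulin brings to the surface of muscle and fat cells. It had 1.37 RPKM in library 1 and 1.36 in library 2, close to the detection limit of 1 RPKM. The gene, ENSG00000181856.10, lies on chromosome 17 from 7185037 to 7191576 on the plus strand. Of 7 fat and muscle markers 6 were at the floor, beside 6545 of 19344 protein-coding genes, and PPARG stood at 0.731 RPKM.

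SLC2A14 was listed at 56.4 RPKM in library 1 and 56.1 in library 2, which would make it the second most abundant member. It held rank 521 among protein-coding genes and rank 7 among SLC genes. Its value was 14.9% of that of SLC2A3. ENSG00000173262.7 lies on chromosome 12 from 7965108 to 8043744, on the same strand as SLC2A3.

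The value of SLC2A14 depends on how reads that match both genes were counted, which is not given in the sources used here. Of the 3413 windows of 50 bases in the main annotated transcript of SLC2A14, 912 (26.7%) occurred unchanged in SLC2A3. In the other direction, 888 of 3778 windows of SLC2A3 (23.5%) occurred in SLC2A14. Shared windows lay in the coding part of SLC2A14 (26.9%) and in its 3′ untranslated part (28.5%), while its 5′ untranslated part shared 3.42%. No window of the 5′ untranslated part of SLC2A3 was found in SLC2A14.

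**Figure D2:**
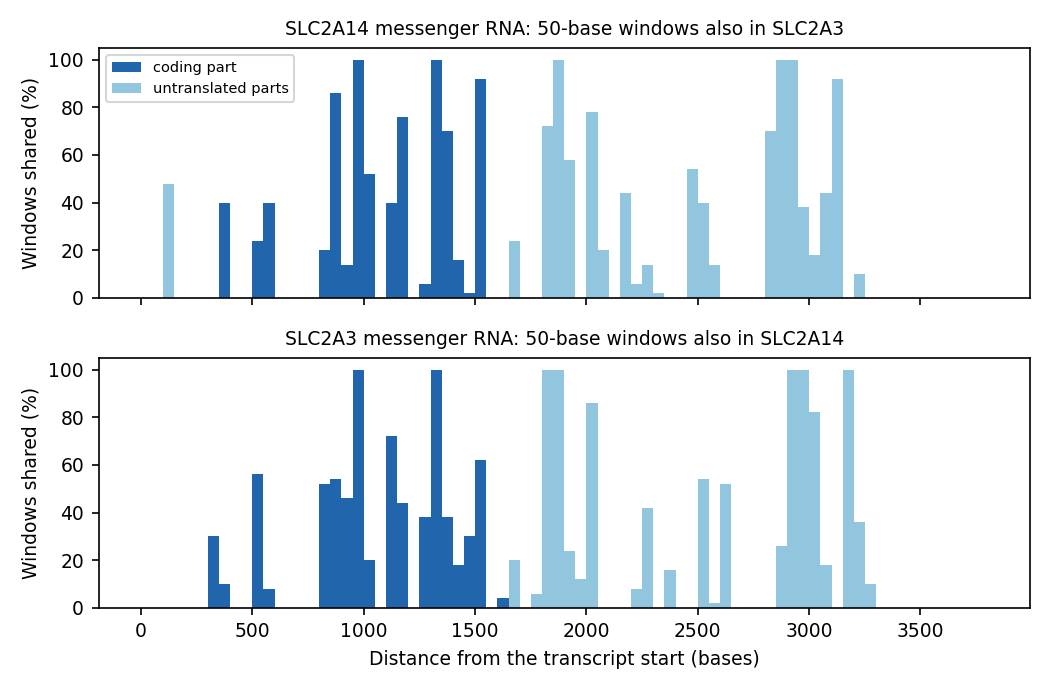
Share of 50-base windows that occur unchanged in the other gene, in bins of 50 window starts along the main transcript of SLC2A14 (top) and SLC2A3 (bottom), with coding bins dark and untranslated bins light. In all 26.7% of SLC2A14 windows and 23.5% of SLC2A3 windows are shared, in blocks spread over the coding and 3′ parts.

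The level that exact matches from SLC2A3 would add to SLC2A14 can be computed for even coverage of the main transcripts, if each such read were counted for both genes. With 50-base windows it is 101 RPKM, above the deposited 56.3. With windows of 36 bases it is 144 RPKM, with 75 bases 55.7 and with 100 bases 30.2. The read length is not given in the sources used here, so it is not known which of these applies, and how much of the SLC2A14 value is its own was not tested. In the other direction SLC2A14 at its deposited level would add 13.2 RPKM to SLC2A3 with 50-base windows, and 75.3% of the SLC2A3 windows occurred in no other annotated gene. The 7 markers of testis germ cells, among them DDX4, DAZL and PRM1, were all at the floor, beside 6545 of 19344 protein-coding genes.

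**Figure D3:**
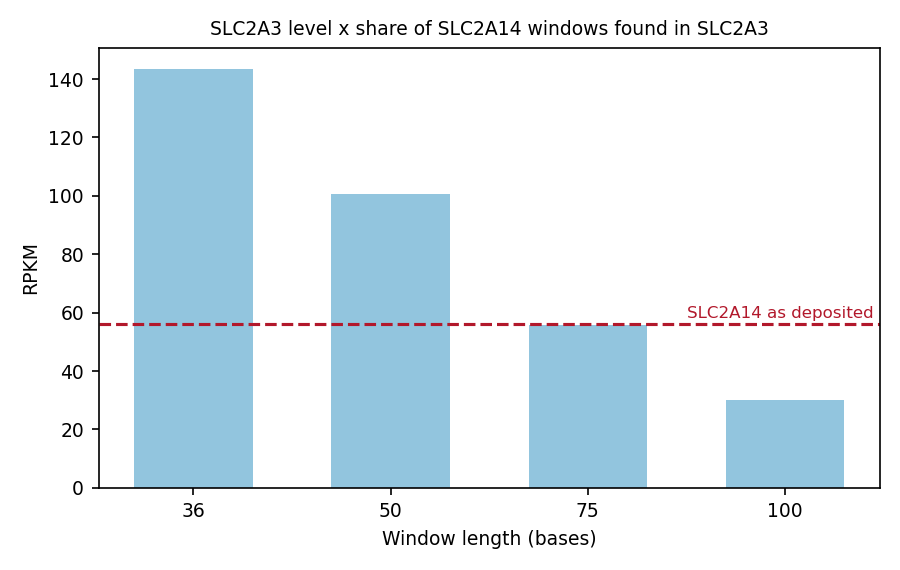
Bars give the mean SLC2A3 level multiplied by the share of SLC2A14 windows found in SLC2A3, in RPKM, for windows of 36, 50, 75 and 100 bases; the dashed line is the deposited SLC2A14 level of 56.3 RPKM. The bars pass the line at 36 and 50 bases, come to 55.7 at 75 bases and stay under it at 100 bases.

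Processed pseudogenes of SLC2A3, intronless copies elsewhere in the genome, were listed far below it. SLC2A3P4 had 3.54 RPKM in library 1 and 3.90 in library 2, which is 131 and 145 reads, and 2.25% of its windows occurred in SLC2A3. SLC2A3P2 had 1.98 and 2.86 RPKM, and 1.89% of its windows were shared. The same computation gave 8.49 RPKM for SLC2A3P4 and 7.12 RPKM for SLC2A3P2 with 50-base windows, above the listed values, while with 75-base windows neither shared any window with SLC2A3. Of the exon bases of SLC2A3P4, 232 overlap RMDN1 on the opposite strand, a gene at 2.82 and 2.80 RPKM. SLC2A3P1 had 13.5 RPKM (494 reads) in library 1 and 13.2 (485 reads) in library 2, and shared no 50-base window with SLC2A3. It lies wholly within exons of PANK3, a pantothenate kinase gene at 10.9 and 10.4 RPKM on the same strand. NANOG and its copy NANOGP1, the stem cell factor gene and pseudogene that neighbour SLC2A14 and SLC2A3 on chromosome 12, were both at the floor.

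Class III members, which act mostly on intracellular membranes, all stood below SLC2A3, SLC2A14 and SLC2A1, and SLC2A8 and SLC2A10 stood above the class I genes SLC2A4 and SLC2A2. SLC2A8, encoding the endosomal and lysosomal GLUT8, had 6.35 RPKM in library 1 and 6.48 in library 2. SLC2A10, encoding GLUT10, whose loss causes arterial tortuosity syndrome, had 5.48 and 5.05 RPKM. SLC2A8 (ENSG00000136856.13) lies on chromosome 9 from 130159417 to 130170703 and SLC2A10 (ENSG00000197496.4) on chromosome 20 from 45338288 to 45364986, both on the plus strand. SLC2A6, encoding the lysosomal GLUT6, had 1.04 and 1.09 RPKM, and lies on chromosome 9 from 136336216 to 136344249 (ENSG00000160326.9). The order of these genes was the same in both libraries, and SLC2A8 and SLC2A10 stood at ranks 87 and 101 of the SLC genes.

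SLC2A12, encoding GLUT12, had 0.807 RPKM in library 1 and 0.638 in library 2, between the floor and the detection limit. The gene, ENSG00000146411.5, lies on chromosome 6 from 134308719 to 134373762 on the minus strand. Of its exon bases, 2852 (51.2%) overlap TBPL1 on the opposite strand, which had 5.33 and 5.02 RPKM. The libraries were strand-specific, but whether the counting used strand is not given in the sources used here. Reads of TBPL1 in the SLC2A12 value can therefore not be told apart.

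SLC2A9, the only class II member described, encodes GLUT9, a urate transporter of liver and kidney, and was at the floor in both libraries. On its annotated exon length of 6628 bases the floor stands for 83.5 reads in library 1, and on its longest transcript for 27.4. The gene, ENSG00000109667.7, lies on chromosome 4 from 9772777 to 10056560. Its antisense gene SLC2A9-AS1 was at the floor too. Other urate and ascorbate carriers reached 1 RPKM in 4 of 8 cases, beside 59.8% of all protein-coding genes. The highest were the ascorbate transporters SLC23A2 at 7.24 and SLC23A1 at 2.90 RPKM. The renal urate exchanger SLC22A12, with SLC22A11 and SLC17A3, was at the floor.

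Per length, SLC2A3 held 75.8% of the summed RPKM of the 10 members in library 1 and 76.2% in library 2. SLC2A14 held 11.4% and 11.3%, and SLC2A1 9.71% and 9.58%. The other 7 genes together held 3.03% of the mean sum. With SLC2A14 left out of the sum, SLC2A3 held 85.7% and SLC2A1 10.9%.

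**Figure D4:**
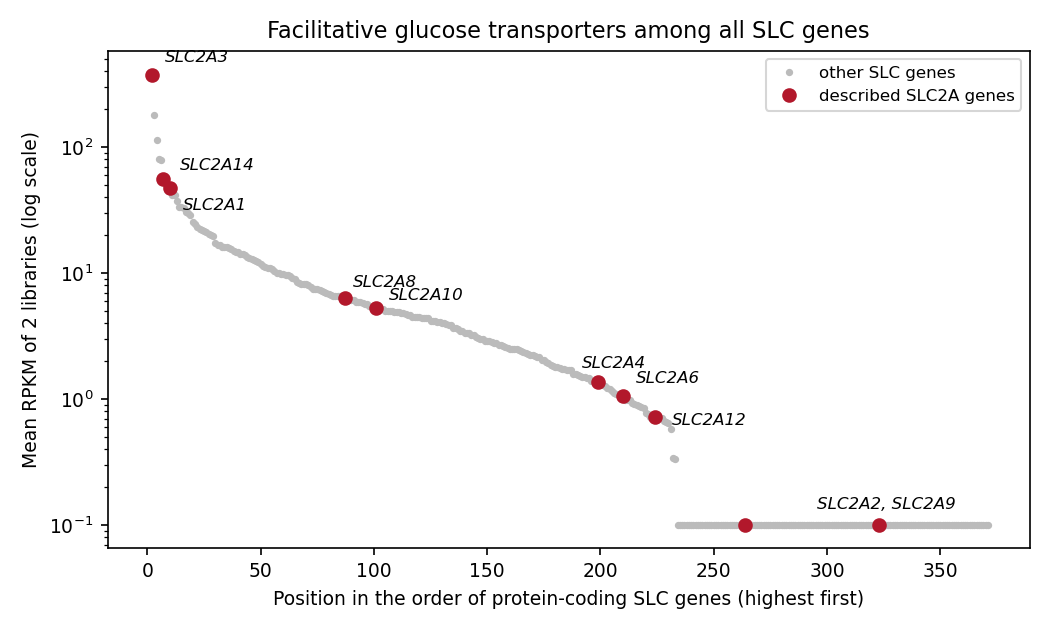
Mean RPKM of the 2 libraries on a log scale for all 371 protein-coding SLC genes, from highest to lowest, with the 10 described genes in red; the order among genes at the floor has no meaning. SLC2A3 is second, SLC2A14 at rank 7 and SLC2A1 at rank 10, whereas SLC2A4, SLC2A6 and SLC2A12 lie just above the floor.

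Differences between the libraries were small in all 8 members above the floor. For SLC2A3 library 1 was 0.013 lower than library 2 on the log2 scale (log2 ratio -0.013), with a counting error of 0.0078 if its exon length in the current annotation was the one used. The log2 ratio of SLC2A1 was 0.013 with a counting error of 0.023, and that of SLC2A10 was 0.12 with a counting error of 0.081. SLC2A12 had the largest of these ratios, 0.34, with a counting error of 0.20. In 5 of the 8 the ratio was within 1 counting error and in all 8 within 2.

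The order of the 8 members above the floor was the same in both libraries, and neighbours in it did not overlap. The libraries were counted as 1 sample, so this gives no measure of the spread between cultures. SLC2A14 exceeded SLC2A1 by 0.23 on the log2 scale (95% counting interval 0.19 to 0.27), and the part of SLC2A3 reads in that difference was not tested. SLC2A8 exceeded SLC2A10 by 0.29 (0.15 to 0.42) and SLC2A4 exceeded SLC2A6 by 0.36 (0.079 to 0.64). These intervals hold counting error only, use the longest annotated transcript as length, and treat reads as independent, which PCR copies without molecular identifiers are not.

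The 4 SLC2A genes outside the described set lay among its low members. SLC2A13, encoding the proton-coupled myo-inositol transporter HMIT, had 1.44 RPKM in library 1 and 1.53 in library 2. SLC2A7 had 1.06 and 1.42 RPKM and SLC2A11 1.01 and 1.17. SLC2A5, encoding the fructose transporter GLUT5, had 0.949 and 0.816 RPKM. SLC2A11 shares 431 exon bases with an overlapping protein-coding gene on the same strand at 334 and 338 RPKM, and the part of those reads in its value was not tested. The values of SLC2A7 overlapped between libraries with those of SLC2A4 and SLC2A11, and those of SLC2A11 with SLC2A6. The 95% counting interval also included 0 for SLC2A13 over SLC2A4 (-0.10 to 0.34), SLC2A6 over SLC2A5 (-0.025 to 0.57) and SLC2A5 over SLC2A12 (-1.7e-06 to 0.58). From SLC2A13 down to SLC2A12, no gene was therefore resolved from the next in the order of all 14 genes.

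Sodium-coupled glucose uptake genes were low beside SLC2A3 and SLC2A1. SLC5A1, SLC5A4, SLC5A10 and SLC5A11 were listed under 0.5 RPKM in each library, and the renal glucose cotransporter gene SLC5A2 had 0.952 and 1.02 RPKM. SLC5A9, a mannose and glucose cotransporter gene, stood at 2.44 RPKM and SLC5A3, which carries myo-inositol, at 5.54. SLC50A1, encoding the sugar carrier SWEET1, was the highest of this list at 11.8 RPKM. In all 3 of its 8 genes, SLC50A1, SLC5A3 and SLC5A9, reached 1 RPKM. The shares were 59.8% over all protein-coding genes and 56.6% over SLC genes.

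Of the genes that trap glucose or release it again, several of broad expression were detected. HK2 at 7.94, ADPGK at 7.55 and HK1 at 7.27 RPKM, which phosphorylate glucose in many tissues, were the 3 of 7 that reached 1 RPKM. The share over all protein-coding genes was 59.8%. Of the glucose-6-phosphatase system, the liver enzyme gene G6PC was at the floor, while the ubiquitous G6PC3 stood at 12.5 RPKM and the glucose-6-phosphate carrier SLC37A4 at 16.6. KHK, the ketohexokinase of fructose breakdown, stood at 0.709 RPKM. SORD, which makes fructose from sorbitol, stood at 47.5 RPKM and AKR1B1, which makes sorbitol from glucose, at 16.8.

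Of 8 genes of lactate and pyruvate transport, 6 were detected, where the protein-coding background was 59.8%. Of the 6, 2 encode lactate carriers of the plasma membrane. BSG, the chaperone that brings monocarboxylate carriers to the membrane, stood at 153 RPKM, the carrier gene SLC16A1 at 33.7 and SLC16A3 at 6.36. The mitochondrial pyruvate carrier genes MPC2 and MPC1 stood at 29.5 and 5.51 RPKM. SLC16A7 and SLC16A8 were at the floor.

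**Figure D5:**
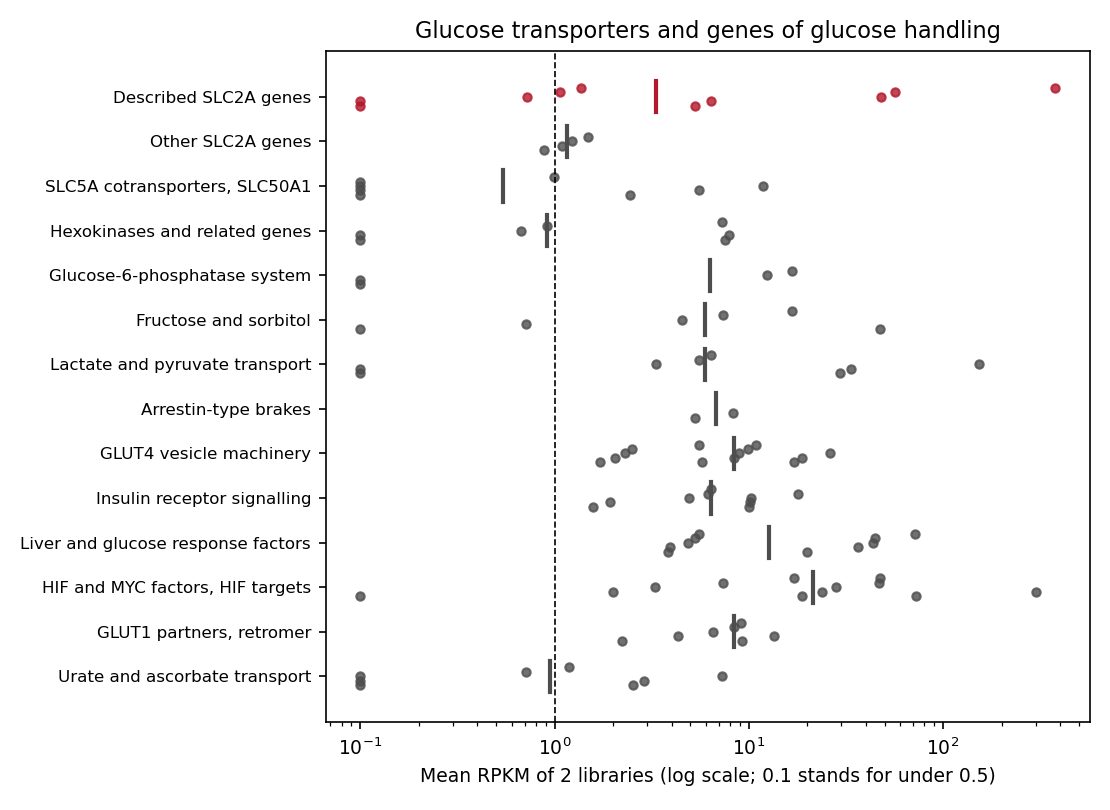
Mean RPKM of the 2 libraries on a log scale for the 10 described genes (top, red) and 13 lists of genes of glucose handling; each point is a gene, the thick bar is the median of the list, and the dashed line is 1 RPKM. SLC2A3 at 377 RPKM lies to the right of every listed gene, with ENO1 at 302 RPKM next.

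Listed genes of the machinery that handles these transporters inside the cell were all detected, where 59.8% of all protein-coding genes were. All 13 genes of GLUT4 vesicle storage and translocation reached 1 RPKM, with a median of 8.40 RPKM beside 2.42 for all protein-coding genes. They were led by the small GTPase gene RAB10 at 26.3, the motor MYO1C at 18.7 and the exocyst subunit EXOC7 at 17.0. The lowest were ASPSCR1, the GLUT4 tether TUG, at 2.31, the Rab regulator TBC1D4 at 2.04 and LNPEP, a resident of the same vesicles, at 1.72 RPKM. All 9 insulin receptor and signalling genes reached 1 RPKM too, with AKT1 at 18.0, AKT2 at 10.3, INSR at 4.92 and IRS2 at 1.58 RPKM. These genes serve many cells and many cargoes, and their detection stands beside a SLC2A4 level of 1.36 RPKM.

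All 7 genes of GLUT1 partners and recycling were detected, beside 59.8% of all protein-coding genes. Among the 7 were the PDZ protein GIPC1 at 13.5 RPKM, the retromer subunits VPS35 at 9.19 and VPS26A at 9.14, and SNX27 at 8.34. The arrestin-like genes ARRDC3 at 8.29 and ARRDC4 at 5.26 RPKM, whose relatives remove glucose transporters from the surface, were both above the limit, and TXNIP had no matched identifier.

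Transcription factors that act on SLC2A2 or on glucose response genes in liver were present although SLC2A2 was at the floor. All 10 measured factors of this list reached 1 RPKM, with a median of 12.7 RPKM. FOXA2 stood at 72.1 RPKM, HNF4A at 44.7, GATA4 at 43.4 and FOXA3 at 36.4, and at the low end MLXIPL, the glucose-responsive factor ChREBP, at 4.88 and NR5A2 at 3.84.

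SLC2A1 and SLC2A3 are also known as targets of hypoxia-inducible factors. A list of 12 genes held hypoxia and MYC factors themselves as well as targets of hypoxia-inducible factors. Of the 12, 11 were detected, against a protein-coding share of 59.8%, and this is not a count of targets alone. The median of the list was 21.3 RPKM. ENO1 stood at 302 RPKM, LDHA at 72.9, PGK1 at 47.4 and HIF1A at 46.8. At the low end were MYC at 3.30 and PDK1, a kinase that inhibits pyruvate dehydrogenase, at 2.00 RPKM. CA9, a carbonic anhydrase that hypoxia strongly induces, was at the floor. The part of these factors in the level of SLC2A3 was not tested.

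Markers of other cells in which these transporters are prominent were mostly at the floor, where 6545 of all 19344 protein-coding genes were. All 7 neuron markers were at the floor, as were all 6 red blood cell markers. Of 7 pluripotent stem cell markers 5 were at the floor, POU5F1, NANOG and SOX2 among them, and the list summed to 2.99 RPKM in library 1 and 3.08 in library 2, mostly from DPPA4 at 1.87. Of 7 trophoblast markers 6 were at the floor, and HLA-G stood at 2.27 RPKM. Of 5 endothelial markers measured 3 were at the floor, with ESAM at 5.75 and KDR at 1.61 RPKM. Pancreatic beta cell markers were at the floor in 5 of 7 cases, PDX1 standing at 8.44 RPKM. INS, the insulin gene, had 0.562 RPKM in library 1 and 1.27 in library 2. Of 8 intestinal and kidney markers 4 were at the floor, with LRP2 at 8.91 and CDX2 at 2.12 RPKM. The part of these cells in the levels of the members was not tested.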

How the data were processed

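The authors deposited 1 table of RPKM values per Ensembl gene for 2 libraries of 1 group. Per the submitters' processing notes FastQC 0.10.1, STAR 2.3.0e and Cufflinks 2.2.0 were used on hg19, and the series description names Sailfish; which of them gave the RPKM, the annotation release, the read length and the handling of multiply matching reads were not stated in the labels. Identifiers were joined without version to GENCODE release 44 on GRCh37, and 54428 of 57158 (95.2%) matched. For single-exon genes under 500 reads, 81.4% of values in each library were whole reads within 0.02 when length was taken as end minus start, which gave the depth; read numbers of genes with several exons are estimates from current lengths. The step and the counting variance were tested on simulated data. Detection was 1 RPKM or more in both libraries. With 1 group no test was run. Windows were searched in the sense strand of annotated transcripts. Coding sequences of the main transcripts were aligned with Biopython 1.88, and the windows printed were the first with the most and the fewest differences. The 100 genes of 13 lists (98 measured) and the 11 marker lists, like the members, were chosen with earlier results of these data known. Named are all members, other SLC2A genes, the neighbours of the 3 highest members among SLC genes, and of each list the 4 highest and 3 lowest genes, or any gene of lists of 8 or fewer. Genes that overlap or neighbour SLC2A loci were named after their values were seen, and markers come from their own lists. Coding bases were compared in place of proteins, which the plan had named. Some genes of the lists and some stretches of sequence are not reported here, while the counts of their lists include them.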

Additional observations from a re-analysis of the deposited data

How the results depend on the processing

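Alternatives left out a library, changed the detection limit, merged SLC2A3 with SLC2A14, or took all 14 SLC2A genes. The count of members detected stayed within 1.5 times of 7. The count of urate and ascorbate carriers was 1 of 8 at 5 RPKM against 4, that of hexokinases and related genes 5 of 7 at 0.5 RPKM against 3, and that of the other SLC2A genes 0 of 4 at 5 RPKM against 3. The median of the members was 1.30 RPKM over all 14 genes and 1.36 with the pair merged, against 3.31, which turned it from above to below the medians of SLC and of all protein-coding genes. The share of SLC2A1 was 10.9% and that of SLC2A3 85.7% with SLC2A14 left out, and 87.3% with SLC2A14 added to SLC2A3, alternatives for SLC2A3 that were chosen after seeing the data. The share of SLC2A14 windows found in SLC2A3 was 14.8% at 75 bases and 8.0% at 100 bases, and that of SLC2A3 windows in SLC2A14 13.3% and 7.22%. Scaling to the summed RPKM of protein-coding genes multiplies all levels of a library by 1 factor and so leaves their order as it was. Estimated reads fell by over 1.5 times for SLC2A3, SLC2A1 and SLC2A8 with the longest transcript as length, as its construction gives. Each symbol had 1 row, so summing rows changed nothing. No paired analysis was possible because there is 1 group. Levels under 0.5 RPKM are not visible because the deposited table lists them as 0.1, whatever the depth.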
